A study of Caenorhabditis elegans with 6 samples.

Results

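The cytosolic chaperonin CCT, also called TRiC, is a double-ring folding machine whose subunits are each encoded by a gene of their own. The deposited footprint table held all 8 of them, cct-1 to cct-8, among 20189 protein-coding genes of the nematode Caenorhabditis elegans, and they were taken by gene symbol. All 8 passed the filter on low counts, with 427 to 1480 reads in each library. The members were chosen by symbol, but the family itself was selected on its log2 fold changes between CHX and no CHX libraries, which were already known, so its values in that comparison are given below as a description and not as a test.

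CCT closes around newly made polypeptides and folds them in a cycle driven by ATP. Actin and tubulin are its classic clients, many proteins of the beta-propeller (WD40) fold also depend on it, and prefoldin is a separate complex that hands unfolded actin and tubulin to it. In worms CCT is needed for embryonic development and for the microtubule and actin cytoskeleton. Every subunit is needed for an intact ring, and the subunits differ in how they bind clients and ATP.

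Ribosome profiling counts the mRNA fragments that ribosomes protect, so a gene's scaled reads report its share of the ribosome footprints in a library. Neither mRNA levels nor total footprint amounts are among the values used here. A lower level below is therefore a lower relative share, and absolute amounts of ribosomes or protein were not tested. The first group, CHX, held 3 libraries from whole hermaphrodites at the L4 larval stage, grown from eggs for 3 days on plates with 500 µg/ml of the elongation inhibitor cycloheximide. The second, no CHX, held 3 libraries from whole L4 hermaphrodites grown for 2 days without it. Animals of both groups were kept at 23 °C and were heterozygous for rpl-36A(P55Q), a change in a protein of the large ribosomal subunit, over the balancer chromosome mIn1. Culture time therefore went with treatment, and the 2 cannot be told apart. Nothing in the labels says that the replicates were separate cultures, so the spread between libraries may be partly technical.

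Libraries held 1601009 to 1901815 reads. The mutated gene, rpl-36.A, had 658 ± 67.4 CPM (reads scaled to the library total with TMM factors) in CHX libraries and 932 ± 66.4 CPM in no CHX libraries (SD, n = 3 each). Marker genes of intestine, body wall muscle, neurons, hypodermis, pharynx and germline, 4 for each tissue, all had reads. Several of the marker lists differed between the groups. Of all genes tested, 22.2% were called higher in CHX libraries and 20% lower. Of 15 oocyte and eggshell genes 14 were called higher, with a summed level of 6006 to 6793 CPM in CHX libraries and 781 to 1014 CPM in no CHX libraries. Of 9 sperm genes tested 7 were called lower, and the list summed to 192 to 231 CPM in CHX libraries and 381 to 433 CPM in no CHX libraries, with ssp-9 at 0 reads throughout. All 4 pharynx markers were called higher, with sums of 601 to 809 CPM in CHX libraries and 410.3 to 477 CPM in no CHX libraries. Of the 4 germline markers 1 was called higher and 2 lower, with sums of 859 to 945 CPM in CHX libraries and 1324 to 1366 CPM in no CHX libraries. Of the 4 body wall muscle markers 2 were called lower, with sums of 7384 to 8460.4 CPM in CHX libraries and 9629 to 10657 CPM in no CHX libraries. The neuron markers, of which 1 of 4 was called higher, summed to 171 to 179 CPM in CHX libraries and 134 to 148 CPM in no CHX libraries. That count is near the 22.2% of all genes called higher. Most of the sum came from the gene called, snb-1, with means of 116 CPM with CHX and 88.8 CPM without it. The groups overlapped in unc-13 and unc-104, and unc-119 was higher without a call. The sums of the intestine and hypodermis markers overlapped between the groups. The part of these tissue differences in the CCT values was not tested, and in whole animals fewer cells of a type and less RNA per cell cannot be told apart.

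Together the 8 CCT genes took 0.352%, 0.366% and 0.363% of reads in CHX replicates 1 to 3, and 0.399%, 0.413% and 0.511% in no CHX replicates 1 to 3. Their summed level was 3424, 3651 and 3613 CPM in the CHX libraries, against 4145, 4213 and 5285 CPM in the no CHX libraries. The CHX libraries were close together and lay below every no CHX library, and no CHX replicate 3 stood well above the other two of its group. The means were 3562 ± 122 CPM with CHX and 4548 ± 639 CPM without it (SD, n = 3 each), a log2 ratio of -0.35 or a level 21.7% lower.

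Every subunit was lower in every CHX library than in any no CHX library. All 8 of 8 members were called lower in the fit over all genes (edgeR, Benjamini-Hochberg adjusted p under 0.05), where 42.2% of 10632 genes tested were called, 20% lower and 22.2% higher. The log2 fold changes of CHX over no CHX ran from -0.68 to -0.28 with a median of -0.34, against a median of 0.03 over all genes tested. Groups that did not overlap, with CHX below, were found for 24.7% of all genes, and with CHX above for 27.7%. Genes as abundant as CCT were lower more often than genes at large. Among the 309 other genes whose mean CPM lay within the range of the members, 334 to 639, 46.3% were called lower, in 54% every CHX library lay below every no CHX library, and the median log2 fold change was -0.23. Since the comparison was known when the family was picked, nothing is read from these counts. Without CHX replicate 1, 2 or 3, the members called lower numbered 2, 4 and 5, where 17.7%, 16.4% and 16.9% of all genes tested were. The log2 ratio of the summed level was then -0.32, -0.37 and -0.36. Without no CHX replicate 3, 5 members and 20.4% of all genes were called lower, with a summed log2 ratio of -0.27. All 8 members stayed called without no CHX replicate 1 or no CHX replicate 2. The gene cct-6 was called in each case.

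**Figure D1:**
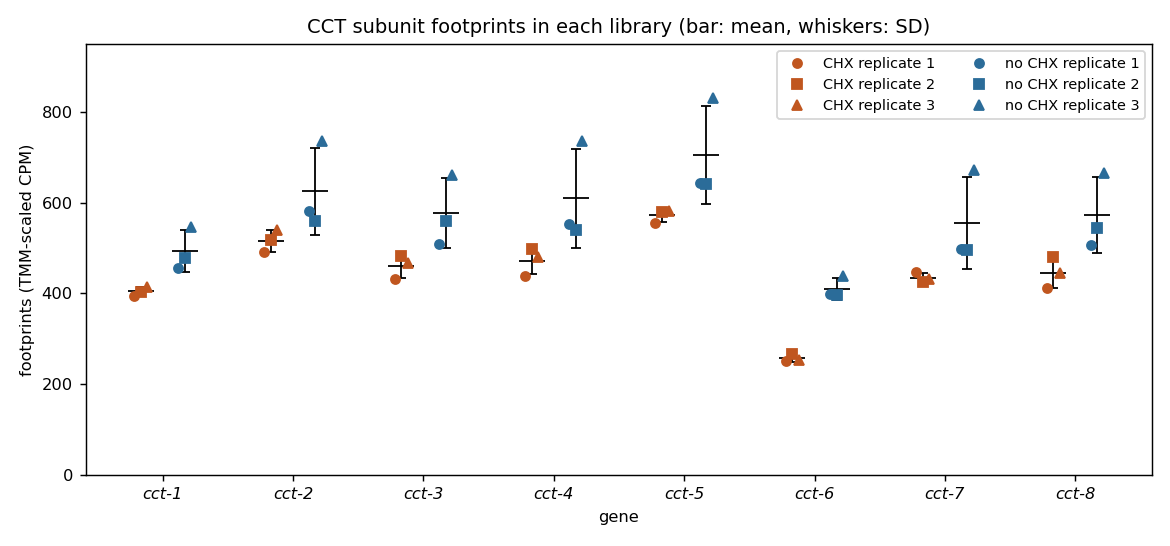
Footprint level of each CCT gene (TMM-scaled CPM, linear axis from 0) in the 3 CHX libraries (orange) and the 3 no CHX libraries (blue), with the mean as a bar and the SD as whiskers. In each gene the CHX libraries lie below the no CHX libraries, no CHX replicate 3 (blue triangle) is the highest, and the gap is widest for cct-6.

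The gene cct-1 encodes the alpha subunit, the founding member of the family known as TCP-1 (WBGene00000377, WBcel235 chromosome II, 8185443 to 8187601, plus strand). Its level was 395, 404 and 415 CPM in CHX replicates 1 to 3, against 456, 479 and 546 CPM in no CHX replicates 1 to 3. The log2 fold change was -0.29 (SE 0.0952). The beta subunit gene cct-2, whose human counterpart is mutated in a form of inherited retinal dystrophy, lies on the same chromosome (WBGene00000378, chromosome II, 8927741 to 8929815, plus strand). It had 492, 517 and 540.2 CPM in the CHX libraries, against 581, 559.6 and 735 CPM in the no CHX libraries. The groups came within 3.59% of each other, the narrowest gap of the 8 genes, and the log2 fold change was -0.28 (SE 0.106), also the smallest. Without no CHX replicate 3 it was -0.19.

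The delta subunit gene cct-4 (WBGene00000379, chromosome II, 8283667 to 8285711, plus strand) had 439, 497 and 479 CPM in the CHX libraries, against 553, 539 and 736 CPM in the no CHX libraries. All CHX values were lower, and no CHX replicate 3 was far above the other two of its group. The log2 fold change was -0.37 (SE 0.115), and -0.25 without that library. The epsilon subunit gene cct-5 (WBGene00000380, chromosome III, 4499191 to 4508114, minus strand), mutated in a human sensory neuropathy, had 555, 580.3 and 582 CPM with CHX, against 644, 641 and 831 CPM without it. Its log2 fold change was -0.30 (SE 0.105), and -0.21 without no CHX replicate 3.

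The eta subunit gene cct-7 (WBGene00020391, chromosome V, 1872246 to 1875526, plus strand) had 447, 425 and 432 CPM in the CHX libraries, against 497, 496 and 672 CPM in the no CHX libraries. The first 2 no CHX libraries were nearly equal, and the third was 1.35 times their mean, the highest such ratio among the 8 genes. The log2 fold change was -0.35 (SE 0.112), and -0.24 without no CHX replicate 3. The last 49 bases of its transcript overlap the minus-strand gene zig-11. Strand use in the counting is not given in the sources used here, so any reads counted there could belong to either gene. Whether those bases are coding in either gene was not checked. No other member overlapped a listed gene.

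The gamma, zeta and theta subunits are known from the yeast and bovine chaperonins to bind ATP more weakly than the rest. The gamma gene cct-3 (WBGene00018782, chromosome II, 2233540 to 2243539, plus strand) had 432, 482 and 466 CPM with CHX, against 509.9, 559 and 661 CPM without it, a log2 fold change of -0.33 (SE 0.103). The theta gene cct-8 (WBGene00021934, chromosome IV, 1087095 to 1093920, minus strand), whose overexpression is known to raise CCT assembly and extend lifespan in worms, had 411, 479 and 445 CPM with CHX, against 507, 544 and 666 CPM without it. Its log2 fold change was -0.36 (SE 0.108). Both lay within the range of the 5 genes above, and both were called lower without no CHX replicate 3, at -0.26 and -0.28.

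The zeta gene cct-6 stood apart from the others (WBGene00000381, chromosome III, 5853532 to 5855687, minus strand). Its level was 252, 266 and 253 CPM in CHX replicates 1 to 3, against 398, 396 and 438 CPM in no CHX replicates 1 to 3. The lowest no CHX library was 48.8% above the highest CHX library, where the gap of the other 7 genes was at most 10.985%. Its log2 fold change of -0.68 (SE 0.0937) meant that the level decreased by 37.4%, and it lay between -0.75 and -0.66 under all 13 other settings and left-out libraries. It was also the gene least raised in no CHX replicate 3. Coding lengths were not analysed here, so the levels of different subunits are not ranked against one another.

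Subunit composition was compared as each gene's share of the reads of all 8, which does not depend on library scaling. The share of cct-6 was 7.36% (95% Wilson interval 6.73 to 8.04), 7.28% (6.64 to 7.98) and 6.998% (6.42 to 7.62) in CHX replicates 1 to 3, against 9.59% (8.90 to 10.3), 9.39% (8.74 to 10.1) and 8.28% (7.74 to 8.86) in no CHX replicates 1 to 3. The highest CHX share was below the lowest no CHX share, although the intervals of CHX replicates 1 and 2 overlapped that of no CHX replicate 3. The mean shares were 7.21% ± 0.191 with CHX and 9.09% ± 0.704 without it (SD, n = 3 each). The shares of cct-2 (14.5% ± 0.407 with CHX, 13.7% ± 0.397 without it) and cct-5 (16.1% ± 0.166 with CHX, 15.5% ± 0.250 without it) were higher in every CHX library than in any no CHX library. The other 5 genes overlapped between groups in their share. The shares sum to a fixed total, so a lower share of cct-6 raises the others. Taken over the reads of the 7 genes other than cct-6, every share overlapped between the groups, with cct-2 at 15.3% to 16.1% with CHX and 14.7% to 15.5% without it, and cct-5 at 17.1% to 17.5% with CHX and 16.8% to 17.2% without it. Without cct-6, the summed level of the other 7 had a log2 ratio of -0.32. Intervals cover counting error only.

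**Figure D2:**
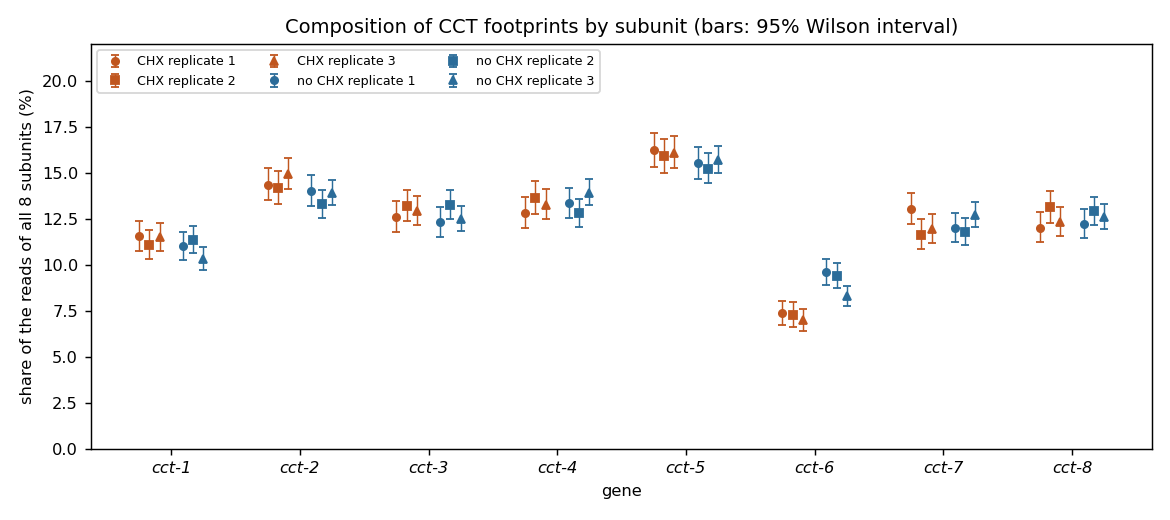
Share of each gene in the reads of all 8 CCT genes (percent, linear axis from 0) per library, with CHX libraries in orange left of no CHX libraries in blue and 95% Wilson intervals as bars. The share of cct-6 is near 7.21% with CHX and near 9.09% without it, while the other genes differ by less.

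A joint shift of the subunits was seen in no CHX replicate 3. In that library all 8 genes were above their group mean on the log2 scale, by 0.10 to 0.29, and in no CHX replicates 1 and 2 none was. Deviations were centred within the group, so a raised library lowers those of the others. The ratio of no CHX replicate 3 to the mean of the other two ran from 1.10 for cct-6 and 1.17 for cct-1 to 1.35 for cct-7, and was 1.26 for the sum. The median of that ratio was 1.00 over all genes tested and 0.990 over the 309 genes of like abundance, of which 60 (19.4%) reached at least the ratio of cct-6. The CHX libraries spread less. In CHX replicates 1 to 3, 1, 6 and 6 of the genes were above their group mean, and the mean deviations were -0.05, 0.04 and 0.02. Per gene, the coefficient of variation was 2.48% to 7.65% over CHX libraries and 5.80% to 18.2% over no CHX libraries.

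**Figure D3:**
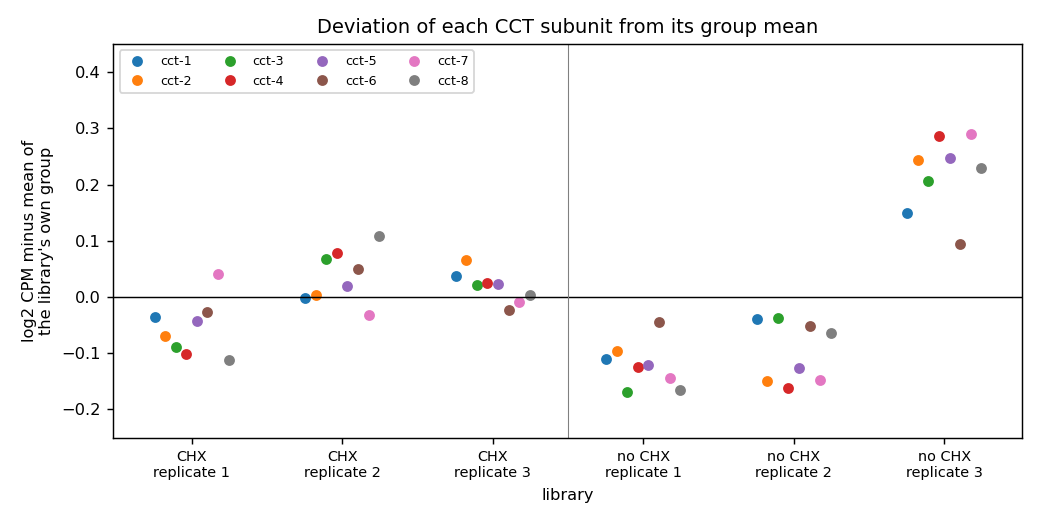
Deviation of each CCT gene from the mean of its own group (log2 CPM) in the 3 CHX libraries, left, and the 3 no CHX libraries, right. All 8 genes are raised together in no CHX replicate 3, with cct-6 the least at 0.10, while no CHX replicates 1 and 2 lie below 0 and the CHX libraries stay between -0.11 and 0.11.

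The genes whose levels over the 6 libraries were most like the mean CCT profile were har-1, dnj-19, nud-1, hsp-1, pas-7 and mrpl-2, out of 2616 named genes with a mean of at least 50 CPM. Likeness was the root-mean-square distance of centred log2 CPM, and is a description with no test, since the profile holds the group difference and library effects. The constitutive HSP70 gene hsp-1 had 4358, 4544 and 4435 CPM in the CHX libraries, against 5153, 4790.3 and 6794 CPM in the no CHX libraries. The HSP40 gene dnj-19 had 266, 295 and 308 CPM with CHX, against 349, 351 and 447 CPM without it. Both repeated the raised value of no CHX replicate 3. The gene nud-1 encodes a NudC-type protein that acts with the dynein motor and as an HSP90 co-chaperone, har-1 a mitochondrial coiled-coil-helix protein, pas-7 an alpha subunit of the proteasome core and mrpl-2 a protein of the mitochondrial ribosome. Set against the mean of the other 7, each CCT gene but cct-6 had 2 to 14 of the 2616 genes nearer to that mean than itself, and cct-6 had 692.

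Most genes of prefoldin, the complex that delivers actin and tubulin chains to CCT, were also lower. The prefoldin list and the gene lists below were chosen with earlier results of these data known. Their counts and adjusted p-values are therefore given as a description. Of its 6 genes 4 were called lower and none higher, where 20% of all genes were called lower, with a median log2 fold change of -0.43 against 0.03 over all genes, and their sum was 455 to 503 CPM in CHX libraries and 602 to 694 CPM in no CHX libraries. The gene pfd-5 had 62.0, 58.5 and 64.4 CPM in the CHX libraries, against 86.3, 91.5 and 113 CPM in the no CHX libraries (log2 fold change -0.65, edgeR adjusted p = 8.7e-04). The gene pfd-1 had 89.4, 94.6 and 103.6 CPM with CHX, against 126, 139 and 149 CPM without it (-0.53, edgeR adjusted p = 0.00165). The groups did not overlap in either gene. The genes pfd-2 (-0.51, edgeR adjusted p = 0.00526) and pfd-3 (-0.36, edgeR adjusted p = 0.0167) also fell. The call of pfd-3 ended without CHX replicate 2 (-0.34) and with DESeq2 (-0.39). For pfd-4 (-0.26, edgeR adjusted p = 0.149) and pfd-6 (-0.19, edgeR adjusted p = 0.2003) no change was called. Unlike the other prefoldin genes, pfd-6 was not raised in no CHX replicate 3, at 0.936 times the mean of the other two.

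The cytosolic HSP70 and HSP90 system, which acts before CCT on many chains and shares clients with it, had 13 of 16 genes called lower and none higher, with a median log2 fold change of -0.38. Over all genes 20% were called lower, and 46.3% of those as abundant as CCT, at 334 to 639 CPM. Many genes of the list lay outside that range, such as hsp-1, hsp-90 and hsp-110 above it and cdc-37, unc-45, pph-5, bag-1 and chn-1 below it. The second share is therefore not matched to the abundance of this list. Its most abundant genes were hsp-1 (-0.33, edgeR adjusted p = 0.0289) and hsp-90 (-0.37, edgeR adjusted p = 0.0188). The largest falls were those of the nucleotide exchange genes bag-1 (-0.84), hsp-110 (-0.51) and unc-23 (-0.50). No CHX replicate 3 was the highest no CHX library for 14 of the 16. The share of all genes with that library highest was not computed. Its ratio to the mean of the others of its group had a median of 1.33 over the list and 1.00 over all genes tested. In hsp-110 the levels were 798, 880.4 and 837 CPM with CHX, against 1040.2, 1043 and 1495 CPM without it. The gene unc-23, which encodes a BAG-domain protein, had its lowest no CHX value in no CHX replicate 3, at 0.754 times the mean of the others of its group. The number called was 6 without CHX replicate 1 and 8 when CHX replicate 3 was left out. It was 8 as well when no CHX replicate 3 was left out, with 1 of them, chn-1, called higher. The call of hsp-1 ended when any single CHX library or no CHX replicate 3 was left out, and that of hsp-90 when CHX replicate 1, CHX replicate 3 or no CHX replicate 3 was. Without a CHX library the log2 fold change of hsp-1 stayed between -0.34 and -0.31 and that of hsp-90 between -0.38 and -0.36, while without no CHX replicate 3 they were -0.205 and -0.25. The 3 genes without a call, named after their values were seen, were the HOP gene sti-1 (-0.38, edgeR adjusted p = 0.0563), the ubiquitin ligase gene chn-1 (0.41, edgeR adjusted p = 0.0606) and the phosphatase gene pph-5 (0.20, edgeR adjusted p = 0.214). The sti-1 call came and went with the setting, with an edgeR adjusted p of 0.0444 under RLE size factors, and its log2 fold change was -0.22 without no CHX replicate 3.

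The group I chaperonin of mitochondria, hsp-60, is a distant relative of CCT that folds proteins in the matrix. It had 956, 1057 and 1065 CPM in the CHX libraries, against 1659, 1538 and 1619 CPM in the no CHX libraries (log2 fold change -0.65, edgeR adjusted p = 1.5e-05). Here no CHX replicate 3 lay between the other two.

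**Figure D4:**
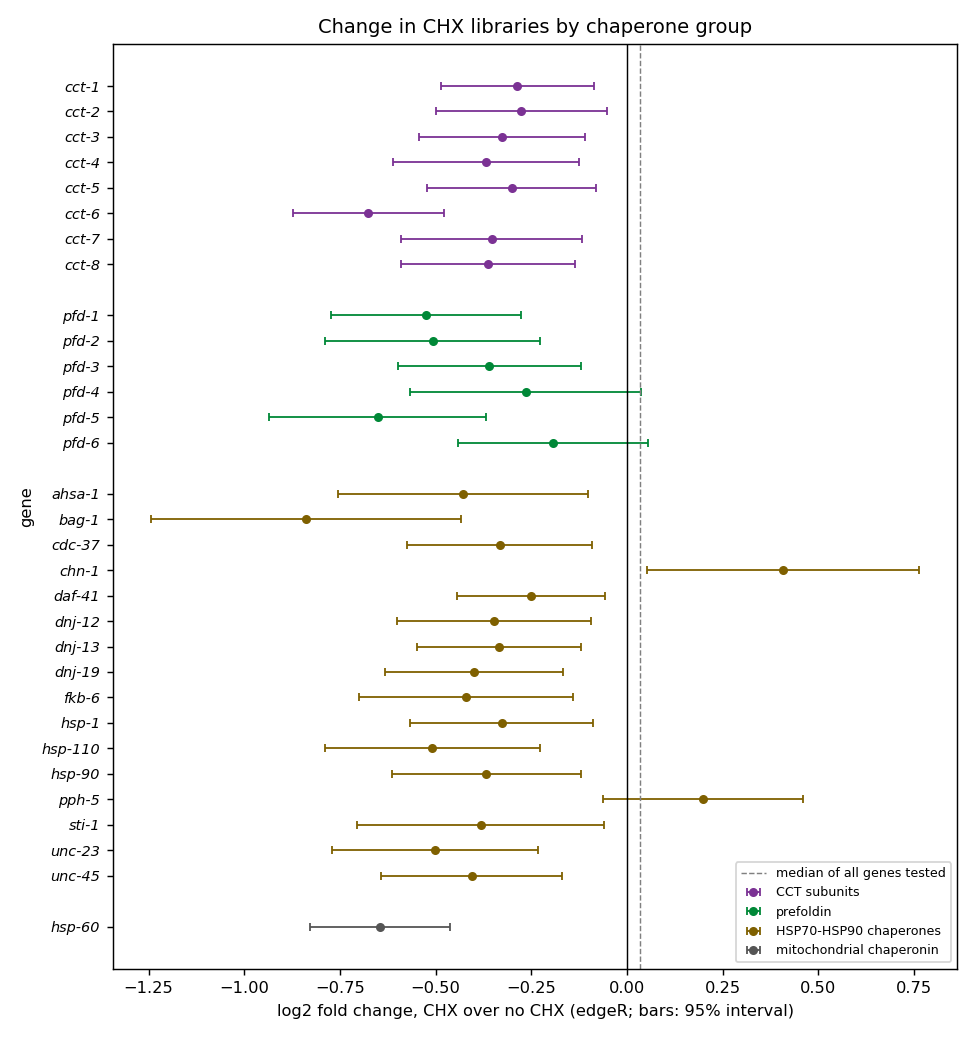
Log2 fold change of CHX over no CHX with 95% intervals for the CCT genes, the prefoldin genes, the HSP70 and HSP90 chaperone genes and hsp-60. The dashed line is the median of all genes tested, at 0.03. The CCT genes lie between -0.68 and -0.28, and chn-1 and pph-5 lie above 0.

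Genes for clients of CCT had calls in both directions. Of 21 actin and tubulin genes 15 were tested, of which 4 were called lower and 2 higher, with a median log2 fold change of -0.11. Over all genes 20% were called lower and 22.2% higher, and with so few genes these counts are not far from that. The actin genes act-4 (1576 ± 193 CPM with CHX, 2473 ± 111 without it), act-2 (649 ± 28.7 and 962 ± 112) and the intestinal microvillus actin gene act-5 (1144 ± 88.1 and 1631 ± 22.5; SD, n = 3 each) fell, by 0.65, 0.57 and 0.51 on the log2 scale. Near-identical actin genes share reads, and act-1 and act-3 are listed at 0 reads in all libraries, so the actin values cannot be given to single genes with certainty. The alpha-tubulin gene tba-4 had 158, 136 and 156 CPM in the CHX libraries, against 304, 306 and 320.5 CPM in the no CHX libraries (-1.05, edgeR adjusted p = 3.7e-07). The weakly read tubulin genes tbb-6 (1.48, edgeR adjusted p = 7.0e-04) and tba-7 (0.96, edgeR adjusted p = 0.00424) rose, with 20.2 ± 3.62 and 33.2 ± 5.67 CPM with CHX and 7.15 ± 2.95 and 16.9 ± 6.62 CPM without it. The tubulin genes with the most reads, named after their values were seen, were not called. They were tbb-2 (1290.4 ± 48.5 CPM with CHX, 1389.9 ± 87.1 without it; log2 fold change -0.11), tba-2 (901 ± 11.1 and 1029.9 ± 41.8; -0.19), tbb-1 (595 ± 10.2 and 638 ± 32.6; -0.10) and tba-1 (693 ± 59.7 and 612 ± 41.8; 0.18; SD, n = 3 each). Of these tba-2 was called lower with upper-quartile factors and when no CHX replicate 2 was left out. Tubulins are also alike in sequence, and part of their reads may be shared.

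Genes of the step after CCT, the cofactors that join alpha- and beta-tubulin into a dimer, had 2 of 7 called higher and none lower, with a median log2 fold change of 0.28. That share is near the 22.2% of all genes called higher. The riser coel-1, which encodes a protein like cofactor E, had 24.0, 31.1 and 36.1 CPM in the CHX libraries, against 13.95, 17.1 and 11.8 CPM in the no CHX libraries (1.09, edgeR adjusted p = 0.00102). The other riser was the cofactor E gene tbce-1 (0.58, edgeR adjusted p = 0.0261), whose call ended with DESeq2 (0.56) and without CHX replicate 2 (0.42), no CHX replicate 2 (0.45) or no CHX replicate 3 (0.56). The more abundant tbcb-1 (0.28, edgeR adjusted p = 0.0843) and tbcd-1 (0.15, edgeR adjusted p = 0.3500) were not called.

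Of 6 beta-propeller client genes 1 was called lower and 1 higher, with a median log2 fold change of -0.04, where 42.2% of all genes were called. The gene of the ribosomal scaffold rack-1 had 1012, 1097 and 1168 CPM with CHX, against 1433, 1248 and 1428 CPM without it (-0.33, edgeR adjusted p = 0.00884). The Cdc20 gene fzy-1, an activator of the anaphase-promoting complex, had 52.0, 59.1 and 42.9 CPM with CHX, against 34.9, 31.4 and 34.8 CPM without it (0.60, edgeR adjusted p = 0.00655), and its call ended with DESeq2 (0.57). The G protein beta gene gpb-1 had 141 ± 0.929 CPM with CHX and 145 ± 3.19 CPM without it (SD, n = 3 each; -0.04, edgeR adjusted p = 0.796).

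The CCT genes are spread over 4 chromosomes, with 4 of them on chromosome II. In worms neighbouring genes on a strand can be transcribed together as an operon, and 5 of the 8 had a downstream gene on the same strand within 500 bases, a distance chosen after the data were seen. Of these neighbours 4 were tested. The nearest, mrpl-50, for a protein of the mitochondrial ribosome, starts 25 bases after cct-2 and had 53.1, 52.9 and 50.2 CPM in the CHX libraries, against 66.0, 69.7 and 94.3 CPM in the no CHX libraries (-0.56, edgeR adjusted p = 0.00624). As for cct-2, every CHX library lay below every no CHX library, and no CHX replicate 3 was the highest, at 1.39 times the mean of the others of its group. The neighbours of cct-3, cct-6 and cct-8 had positive values without a call. They were F54A3.2 (0.49, edgeR adjusted p = 0.0854), the splicing helicase gene ddx-23 (0.28, edgeR adjusted p = 0.0665) and the COP9 signalosome gene csn-4 (0.30, edgeR adjusted p = 0.125). The raised no CHX replicate 3 was also seen in F54A3.2 and csn-4, at 1.55 and 1.51 times the mean of the others, against 0.994 for ddx-23. The values of F54A3.2 and csn-4 moved with single no CHX libraries. Without no CHX replicate 3 both were called higher (0.71 and 0.49), while with no CHX replicate 2 left out F54A3.2 was 0.21 and csn-4 0.15. Leaving out no CHX replicate 1 put csn-4 at 0.16. Whether any of these pairs share a transcript was not tested.

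**Figure D5:**
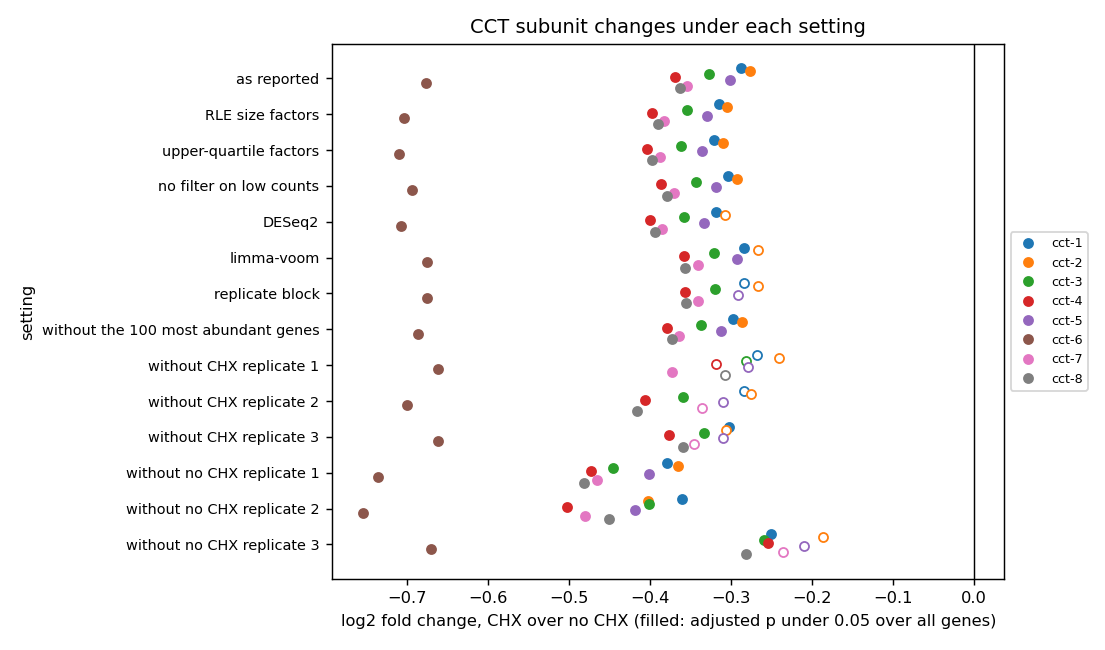
Log2 fold change of CHX over no CHX for each CCT gene as reported and under 13 other settings, with filled points where the adjusted p over all genes was under 0.05 and open points where it was not. All values are below 0, cct-6 is called in every setting, and the other 7 genes come nearest to 0 without no CHX replicate 3.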

How the data were processed

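The authors deposited one table of raw read counts, with a line per protein-coding gene for its coding sequence, per the file headers. WBcel235 and DESeq2 are named in the submitters' processing notes. The sources used here do not give the aligner, rRNA removal, strand, or how molecular identifiers and multiply matching reads were handled.

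In R 4.3.3, edgeR 4.0.16 filtered genes (filterByExpr, minimum count 10), scaled them by TMM and ran its robust quasi-likelihood test on all 6 libraries, with group alone in the design and Benjamini-Hochberg adjustment over 10632 genes. The edgeR fit, with and without a replicate block, and the DESeq2 and limma-voom fits were also run on simulated counts. The other steps were not. Fold changes are CHX over no CHX. The members and lists were chosen with earlier results of these data known.

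Named genes were the 8 members, all prefoldin genes, the 6 most alike genes, hsp-60 and rpl-36.A. From each other list up to 3 called higher, 3 called lower and the 2 most abundant were named. The tested neighbours were added to these. So were sti-1, chn-1, pph-5, tba-1, tba-2, tbb-1 and tbb-2, after their values were seen. The symbols phlp-1, pdcl-1, lst-8, sutr-1 and fer-14 were not matched, and daf-21 stands in the table as hsp-90. Reads per codon were not computed, since coding lengths and sequences were not used here. Libraries differed more than sampling noise allows, with a chi-square per degree of freedom of 1.89 to 3.35 within groups. Alternatives were RLE and upper-quartile factors, no filter, DESeq2 1.42.0, limma-voom (limma 3.58.1), a replicate block, the table less its 100 most abundant genes, and each library left out.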

Additional observations from a re-analysis of the deposited data

How the results depend on the processing

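No log2 fold change of a single named gene or of the summed CCT genes changed sign under the alternatives run for it. Alternatives were not run for the medians of the other lists. The median over all tested genes, 0.03 as reported, was slightly below 0 without any one no CHX library (-0.0072 to -0.0023). The number of genes called was 3209 with DESeq2 to 5123 without the filter on low counts, and 3840 to 4329 with a library left out, against 4487 as reported. The number of CCT genes called lower was 2 to 8 with a library left out and 7 with both DESeq2 and limma-voom. With a replicate block it was 5. The labels do not say whether same-numbered libraries of the groups were paired. Their deviations correlated at -0.13, -0.09 and -0.08 over 9083 genes. These deviations were centred within the 3 libraries of a group, so the correlations cannot decide on pairing. The log2 ratio of the summed CCT genes was -0.46 to -0.27 with a library left out. Tubulin cofactor calls numbered 1 with DESeq2 and 1 to 2 with a library left out. Beta-propeller client calls numbered 1 with DESeq2 and 1 without the 100 most abundant genes, which include rack-1. HSP70 and HSP90 chaperone calls numbered 6 to 14 with a library left out, and prefoldin calls 3 to 4. Of the values of single genes under the alternatives, 583 had the same status as reported, 47 lost a call and 13 gained one. The 583 include genes that had no call as reported and stayed without one. The order of the subunits by reads per codon was not run.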
